A study of Homo sapiens with 72 samples.

Results

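Histones are the proteins around which DNA is wound in the nucleus. The histone genes described here are the genes whose symbol is that of a linker histone H1, of a core histone H2A, H2B, H3 or H4, or of the variants H2AX, H2AZ1, H3.3 and macroH2A. Symbols came from the deposited tables that carry them and were passed to the others by Ensembl identifier. The rule gave 74 of 61541 genes after 7 named pseudogenes were dropped. Of these, 64 are H1, H2A, H2B, H3 and H4 genes of the histone clusters, 8 code for replacement and variant histones, and 2 are H1 genes elsewhere. Statements on single genes were kept to tables where the base mean, the average of normalised reads in a comparison, reached 10. That held for 43 of the 74 genes somewhere and for 25 of them in all 11 comparisons, while 11 genes had no read at all.

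Most histone genes sit in large clusters and are transcribed in S phase, when new chromatin is assembled on replicated DNA. Their messages usually lack a poly-A tail and end in a conserved stem-loop bound by SLBP, although several cluster genes also yield polyadenylated messages. Most replacement and variant histones are made throughout the cell cycle from polyadenylated messages. The libraries were selected for poly-A tails, which favours the polyadenylated messages of cluster genes. The values do not tell these forms apart, and the stem-loop form was not measured separately. Cluster genes of one type have very similar coding sequences, and the treatment of reads that fit several genes or lie on the other strand is not given in the sources used here, so values of single cluster genes carry that uncertainty.

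G3BP1 and its paralog G3BP2 are RNA-binding proteins of stress granules, the cytoplasmic bodies of RNA and protein that form under stress. A first RNA-seq experiment in U2OS cells, a human osteosarcoma line, compared wild-type cells, cells with a G3BP1/2 knockout, and knockout cells 24 h after lipofection of a G3BP1 transgene. In a second U2OS experiment every group carried the G3BP1/2 knockout: untransfected cells, cells 24 h after lipofection of wild-type G3BP1, and cells 24 h after lipofection of G3BP1 lacking its NTF2 domain, each without and with 200 uM sodium arsenite for 2 h. Each of these 9 groups had 2 libraries. RIP-seq set 3 immunoprecipitated (IP) libraries beside 3 input libraries of FlpIn 293 Trex cells, a human embryonic kidney line with stable FLAG-G3BP1 induced by 1 ug/mL tetracycline for 24 h. Knockout and wild-type groups were untransfected, no group with an empty vector was used here, and an immunoprecipitation without FLAG-G3BP1 was not analysed here, so transfection cannot be told apart from rescue. Nothing in the labels says that libraries came from separate cultures or knockout clones, so p-values measure the spread between these libraries, which may be technical.

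Reads in genes came to 38.2 to 51.9 M per library in the first and 10.8 to 26.4 M in the second experiment. For the knocked-out genes, the authors' deposited table gave log2 fold changes of -0.56 for G3BP1 (adjusted p 1.01e-29) and -0.36 for G3BP2 (adjusted p 1.27e-09) in knockout over wild type, so both transcripts were still counted. G3BP1 rose by 7.31 and 7.75 with the wild-type and NTF2-deletion transgenes in the authors' deposited tables of the second experiment. Of the U2OS markers, COL1A1, SPARC, VIM and RUNX2 were counted and TWIST1 had a base mean of 0 in the authors' deposited table of knockout and wild-type cells, where 4 of 5 tested markers were lower in knockout cells, COL1A1 at -2.73 and RUNX2 at -1.38. The blood cell marker PTPRC, with a base mean of 21.3 in knockout and wild-type cells, was at -2.34 in knockout over wild type by the authors' deposited table. In the authors' deposited RIP table the kidney line markers LIN28B, SALL1 and NEFL had base means of 1164, 394 and 1078, and PTPRC was at 0. The lists did not separate the lines by presence. All 6 kidney line markers reached a base mean of 10 in knockout and wild-type U2OS cells, and 5 of 6 U2OS markers did in the RIP libraries. In the RIP libraries 5 of the 6 kidney line markers reached it. Of 3 markers of other cells, 1 did in the RIP libraries and 2 in knockout and wild-type U2OS cells. The marker shifts between knockout and wild-type cells run along with the knockout, and their part in the histone values was not tested.

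Promoters of 4 cluster genes that were high in knockout cells are shown first, since short elements set the types of histone genes apart. They run from 250 bases before to 50 bases after the start of the gene and come from RefSeq (GRCh38.p14). The H2BC12 promoter lies at chr6:27146806-27147105, that of H2BC11 at chr6:27132746-27133045, that of H2BC21 at chr1:149886633-149886932 and that of H1-2 at chr6:26056421-26056720, all on the minus strand. Capitals mark the octamer ATTTGCAT, an element bound by POU-domain factors, in the H2B promoters, and CCAAT in the H1-2 promoter.
H2BC12: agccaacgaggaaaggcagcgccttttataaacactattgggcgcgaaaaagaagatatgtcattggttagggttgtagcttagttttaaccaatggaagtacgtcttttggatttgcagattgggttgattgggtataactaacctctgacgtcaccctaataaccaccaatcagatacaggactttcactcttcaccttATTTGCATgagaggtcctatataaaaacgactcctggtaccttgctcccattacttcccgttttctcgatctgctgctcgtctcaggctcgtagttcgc
H2BC11: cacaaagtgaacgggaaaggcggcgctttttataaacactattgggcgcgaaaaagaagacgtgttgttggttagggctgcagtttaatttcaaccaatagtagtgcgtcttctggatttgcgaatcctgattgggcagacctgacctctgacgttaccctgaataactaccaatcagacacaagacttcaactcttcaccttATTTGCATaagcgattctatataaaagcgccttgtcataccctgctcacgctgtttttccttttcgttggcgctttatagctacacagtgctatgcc
H2BC21: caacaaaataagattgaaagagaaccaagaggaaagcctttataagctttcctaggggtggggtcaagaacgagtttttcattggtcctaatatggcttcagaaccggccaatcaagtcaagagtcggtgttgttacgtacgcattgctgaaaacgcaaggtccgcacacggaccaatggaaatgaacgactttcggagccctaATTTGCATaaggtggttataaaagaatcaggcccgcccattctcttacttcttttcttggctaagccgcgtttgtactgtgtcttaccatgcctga
H1-2: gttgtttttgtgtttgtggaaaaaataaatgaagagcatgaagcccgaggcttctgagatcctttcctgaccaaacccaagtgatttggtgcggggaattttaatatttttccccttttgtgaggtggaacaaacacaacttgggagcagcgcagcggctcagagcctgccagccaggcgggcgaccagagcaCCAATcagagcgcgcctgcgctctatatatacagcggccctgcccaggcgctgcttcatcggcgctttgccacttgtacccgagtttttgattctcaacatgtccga
The octamer began 49, 47 and 46 bases before the start of H2BC12, H2BC11 and H2BC21, at nearly the same place. RefSeq entries matched 68 of the 74 genes. With both strands searched, the octamer stood in 14 of 17 H2B and 11 of 13 H2A promoters, in 1 of 11 H3, 0 of 6 H1 and 0 of 12 H4 promoters, and in 1.77% of all 35116 promoters of that length. CCAAT stood in every H1, H2A, H2B and H3 promoter with an entry, in 3 of 12 H4 promoters and in 34.6% of all promoters. TATAAA stood in 9 of 11 H3, 10 of 13 H2A, 12 of 17 H2B, 3 of 6 H1 and 6 of 12 H4 promoters and in 11.5% of all. These are matches of letters, not measured binding sites.

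The first comparison asked what loss of both G3BP proteins did to histone messages in unstressed cells. Cluster histone messages, as counted in these poly-A selected libraries, were several times as abundant in knockout as in wild-type U2OS cells. Summed over the 64 cluster genes they made up 243 and 252 of every M gene reads in wild-type libraries, 1170.0 and 1195 in knockout libraries and 761 and 824 in rescued libraries. The 3 groups did not overlap, and the knockout mean was 4.78 times the wild-type mean. For the 8 replacement and variant genes the same sum went from 1599 and 1637 to 1909.8 and 1916, a ratio of 1.18.

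**Figure D1:**
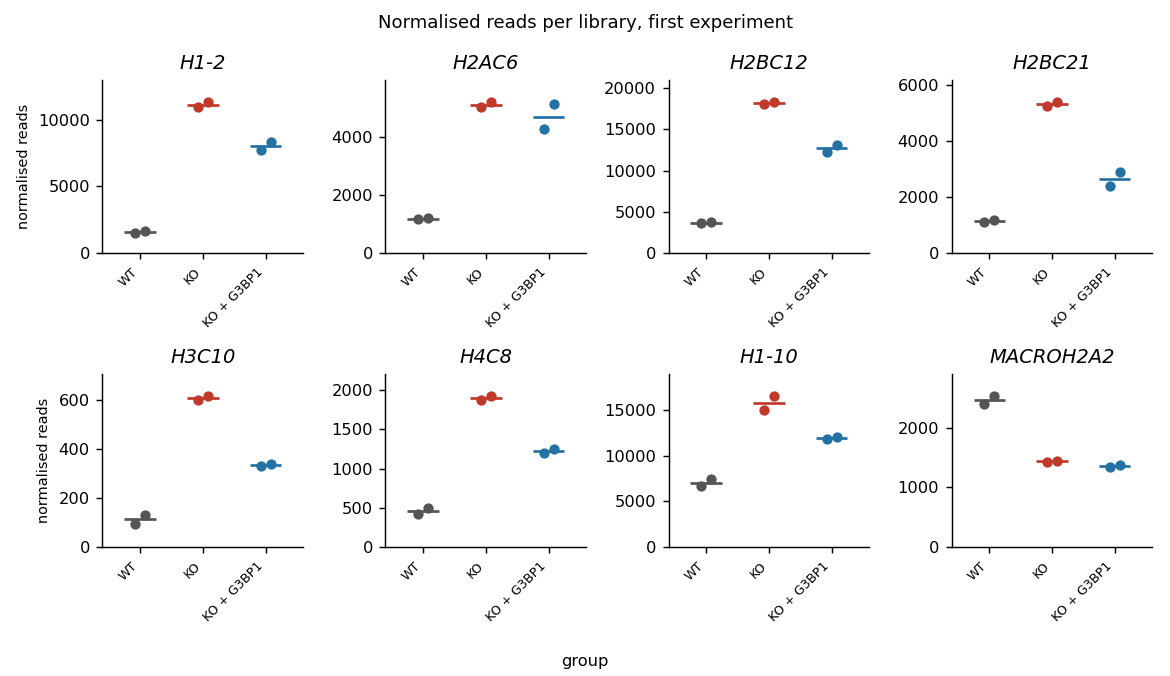
Normalised reads of 8 histone genes in each library of the first experiment (points) with the group mean (line), for wild-type cells (WT), G3BP1/2 knockout cells (KO) and knockout cells transfected with G3BP1. The first 6 are cluster genes and lie higher in both knockout libraries than in both wild-type libraries, as does H1-10, while MACROH2A2 lies lower.

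Of 41 histone genes tested, 28 were higher and 3 lower in knockout cells at an adjusted p under 0.05 in the authors' deposited table, where 45.9% of all genes tested were called, 22.2% higher and 23.7% lower. The histone median was 1.10 on the log2 scale, against 0.01 over all genes. Among the 33 cluster genes 24 were higher, 0 lower and 9 not called, with a median of 1.62. By type, 8 of 9 H2B, 4 of 4 H3, 7 of 10 H4, 3 of 6 H2A and 2 of 4 H1 genes were higher. A list of 7 cluster genes with described polyadenylated messages (H1-2, H2AC6, H2BC4, H2BC5, H2BC11, H2BC12 and H2BC21) was higher throughout, with a median of 2.24. These 7 genes held 82.7% to 83.4% of cluster reads in wild-type and 88.4% to 88.5% in knockout libraries.

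The linker histone H1-2, which binds DNA where it enters and leaves the nucleosome, had 1509 and 1607 normalised reads in wild-type, 11002 and 11335 in knockout and 7757 and 8314 in rescued libraries. Its 3 groups were far apart. Knockout libraries held 7.17 times the wild-type mean, between 6.85 and 7.51 times for single pairs of libraries, and the authors' deposited table gave H1-2 a log2 fold change of 2.83 (SE 0.06) with an adjusted p of 0 as listed. H1-4, another cluster H1 gene, had 28.0 and 38.5 normalised reads in wild-type and 86.1 and 114 in knockout libraries and rose by 1.32 (SE 0.34) per the authors' deposited table. H1-1 and H1-6, at 0.52 and 0.81 per the authors' deposited table, were not called.

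Among H2B genes, whose product pairs with H2A in the nucleosome, H2BC12 had 3626 and 3735 normalised reads in wild-type, 18061 and 18305 in knockout and 12255 and 13142 in rescued libraries. Knockout libraries were highest and wild-type libraries lowest, without overlap. Of 41 histone genes 36 had both knockout libraries above both wild-type libraries and 4 below, against 39.4% and 38.5% of all genes. The authors' deposited table put H2BC12 at 2.29 (SE 0.05). H2BC11 went from 889.6 and 936 to 4533 and 4711 normalised reads, a ratio of 5.06. H2BC21, of the smaller cluster on chromosome 1, went from 1111 and 1165 to 5267 and 5395, a ratio of 4.69. H2BC6, with 93.3 and 106 normalised reads in wild-type and 595 and 618 in knockout libraries, changed most among H2B genes, by 2.49 per the authors' deposited table. H2BC4, H2BC5, H2BC7 and H2BC15 were also higher, at 2.24, 1.79, 1.08 and 0.42 in the authors' deposited table. Of the tested H2B genes 6 have the octamer shown above in the promoter, and all 6 were called higher, with a median of 2.27. Of the 3 without it 2 were called, with a median of 0.82. These counts describe few genes and were not tested.

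H2A genes were less uniform. H2AC6 rose from 1169.6 and 1180.4 to 5023 and 5176 normalised reads, and H2AC13 and H2AC11 rose by 2.32 and 1.72 per the authors' deposited table. H2AC20, with 43.5 and 52.7 normalised reads in wild-type and 24.4 and 38.7 in knockout libraries, had the lowest value of the tested cluster genes, -0.45 in the authors' deposited table, and was not called (adjusted p 0.415). Its promoter holds the octamer too. Of 3 tested H2A genes with the octamer 2 were called higher, with a median of 1.72, and of 2 without it 1 was, with a median of 1.37.

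H3 and H4 form the inner part of the nucleosome. H4C3 had 56.9 and 60.9 normalised reads in wild-type, 478 and 495 in knockout and 140.0 and 140.3 in rescued libraries. Its log2 fold change of 2.87 (SE 0.21) was the highest of the histone genes tested in the authors' deposited table. H4C8 had 425 and 489.9 normalised reads in wild-type, 1879.8 and 1919.5 in knockout and 1198 and 1244 in rescued libraries and rose by 2.02 per the authors' deposited table. Among H3 genes H3C10 rose most, by 2.31 per the authors' deposited table, from 95.3 and 131 to 599 and 615 normalised reads, with 331 and 339 after rescue. H3C6 had 288 and 289.9 normalised reads in wild-type, 460.5 and 513 in knockout and 246 and 280.1 in rescued libraries. Rescued libraries thus lay below wild type for H3C6 and above it for H3C10.

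Replacement and variant genes moved in both directions. H1-10, a linker histone variant, had 6631 and 7388 normalised reads in wild-type and 15028 and 16475 in knockout libraries and rose by 1.16 (SE 0.06, adjusted p 1.07e-72) per the authors' deposited table. H2AX, whose phosphorylated form marks DNA breaks, rose by 0.57 per the authors' deposited table. H2AZ1, the H2A variant found near active promoters, rose by 0.15, and H3-3A, 1 of the H3.3 genes, was not called at 0.20 in the authors' deposited table. MACROH2A2 had 2402 and 2532 normalised reads in wild-type, 1436 and 1442 in knockout and 1347 and 1385 in rescued libraries, so it fell in knockout cells and stayed low after rescue. MACROH2A2 and MACROH2A1, which code for H2A variants with a large extra domain, fell by 0.77 and 0.40 on the log2 scale per the authors' deposited table, and H3-3B, the other H3.3 gene, fell by 0.21.

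**Figure D2:**
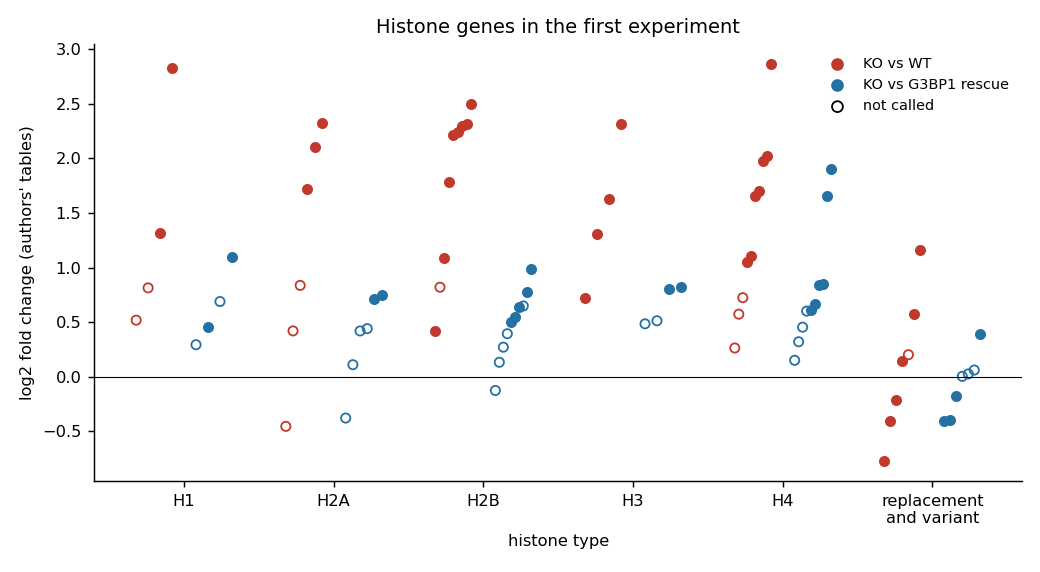
Log2 fold changes of histone genes in the authors' tables of the first experiment, knockout over wild type (red) and knockout over rescue (blue), by histone type; filled points passed an adjusted p of 0.05. Cluster genes called in knockout over wild type all lie above 0, with H4C3 highest at 2.87, and replacement and variant genes lie on both sides of 0.

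Position was compared with the gene order of RefSeq. In the large cluster on chromosome 6, 23 of 30 tested histone genes were higher in knockout cells and 0 lower, with a median of 1.64. Of 12 other protein-coding genes tested between its first and last histone gene 5 were higher and 0 lower, with a median of 0.28. These 5, chosen after their values were seen, were BTN3A3, BTN3A2, BTN3A1 and BTN2A2, which code for butyrophilins of the cell surface, and HMGN4, a nucleosome-binding protein, at 3.07, 2.73, 2.50, 1.57 and 0.36 in the authors' deposited table.

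The next comparison set knockout cells against rescued cells, with the same knockout libraries. Rescue was accompanied by lower cluster histone messages, but not by a return to wild-type levels. The authors' deposited table called 18 of 42 histone genes higher and 3 lower in knockout cells, where 41.5% of all genes were called, 17.8% higher and 23.7% lower. Cluster genes made up 17 of the 18, and the median over 34 cluster genes was 0.57. H4C2 had 64.0 and 83.6 normalised reads in knockout and 6.55 and 7.52 in rescued libraries, below the 12.2 and 18.6 of wild type. The highest values in the authors' deposited table were 1.91 for H4C2, 1.65 for H4C3, 1.10 for H1-1, 0.98 for H2BC21 and 0.85 for H4C9. Of the 7 polyadenylated cluster genes 5 were higher in knockout cells, and H2AC6 and H2BC4, at 0.11 and 0.13 in the authors' deposited table, were not called.

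Among variants, H1-10 was higher in knockout than in rescued cells at 0.39, and MACROH2A1, H3-3B and H2AZ1 were lower at -0.40, -0.39 and -0.18 in the authors' deposited table. MACROH2A1 had 11137 and 11888 normalised reads in wild-type, 8681 and 8782 in knockout and 11291 and 11598 in rescued libraries, so the rescued libraries lay between those of wild type. MACROH2A2, H2AX and H3-3A, at 0.06, 0.00 and 0.03 in the authors' deposited table, were not called.

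Wild-type and rescued libraries were also compared directly. Of 38 histone genes 21 were lower and 1, MACROH2A2, higher in wild-type cells by the authors' deposited table, where 39.3% of all genes were called, 22.5% lower and 16.8% higher. The 7 polyadenylated cluster genes were all lower, from -2.36 for H1-2, -1.97 for H2AC6 and -1.96 for H2BC4 to -1.21 for H2BC21 in the authors' deposited table. H3C6 and H4C2, at 0.10 and 0.31 in the authors' deposited table, were not called. With test statistics divided by their robust spread, 16 of 31 calls were left for knockout over wild type, 8 of 21 for knockout over rescue and 14 of 22 for wild type over rescue. That spread was taken over all genes tested, changed ones included. The share of all genes keeping a call is not given, here or below. Whether histone genes lost more calls than other genes is thus not known.

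Genes that act on histone messages were read beside them, from a list of 17. In knockout against wild-type cells the authors' deposited table called 1 higher and 4 lower, where 22.2% of all genes were higher and 23.7% lower. CASP8AP2, needed for histone transcription in S phase, was higher at 0.33, and CPSF2, a subunit of the cleavage complex for messenger 3′ ends, and the exonuclease ERI1 were lower at -1.20 and -0.36 in the authors' deposited table. SLBP and NPAT, a coactivator of the histone clusters, stood at 0.09 and 0.06 in the authors' deposited table and were not called. Against rescue 12 of 17 were lower in knockout cells and 1 higher, with CPSF2 at -0.85, LSM10 at -0.54 and SLBP at -0.32 in the authors' deposited table. Of all genes 23.7% were lower and 17.8% higher in that comparison. Of 21 histone chaperone and assembly genes 10 were higher and 2 lower in the knockout, relative to wild type, with HIRA at 0.71, ANP32E at 0.47, the H1 and H3-H4 chaperone NASP at 0.32, TONSL at -0.30 and SUPT16H at -0.15 in the authors' deposited table.

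S phase markers were read too, because the clusters follow S phase. Summed over 15 markers they made up 2443 and 2499.8 of every M gene reads in wild-type, 3004 and 3026 in knockout and 3009 and 3083 in rescued libraries. Knockout was 1.22 times wild type, against 4.78 for the cluster genes, and knockout and rescued libraries overlapped in the markers while their cluster reads did not. Knockout over wild type gave 5 higher and 5 lower markers in the authors' deposited table, with TYMS at 1.43, MCM2 at 0.80, CCNE1 at -0.82, CDC6 at -0.45 and PCNA at 0.00. Of all genes 22.2% were higher and 23.7% lower there. The part of S phase in the histone values was not tested.

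**Figure D3:**
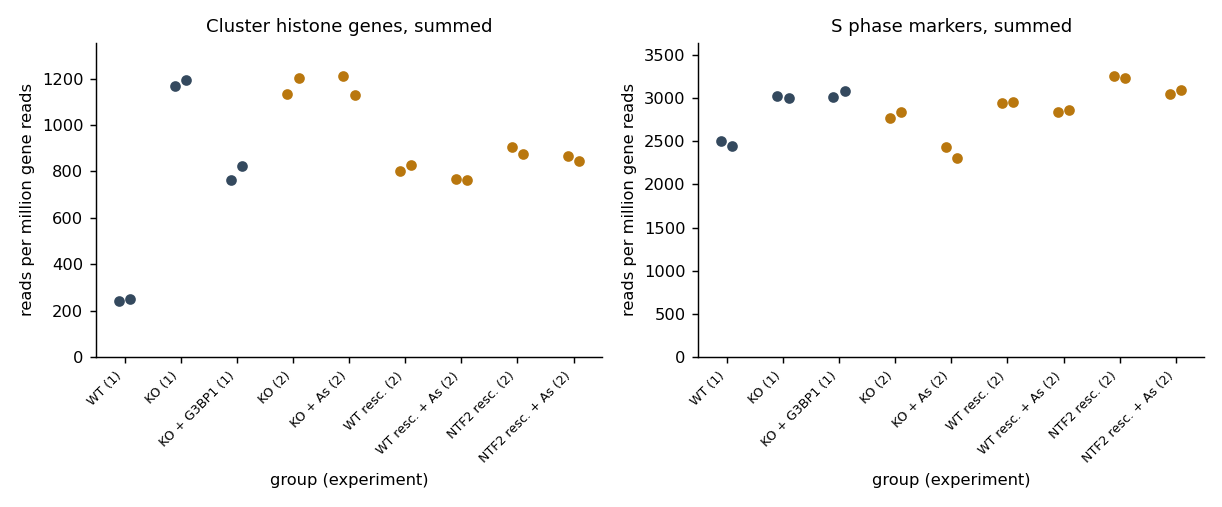
Reads per M gene reads summed over the 64 cluster histone genes (left) and over 15 S phase markers (right), 1 point per library, for the first (dark) and second (light) experiment; As is arsenite. Untreated knockout libraries lie between 1135 and 1203 on the left in both experiments, and wild-type libraries at 243 and 252.

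In the second experiment, rescue was again accompanied by lower cluster reads, with wild-type and with NTF2-deletion G3BP1. Untreated knockout libraries held 1135 and 1203 cluster reads per M gene reads, wild-type rescue 801 and 828, and NTF2-deletion rescue 876 and 904. Both rescues lay below the knockout without overlap. For wild-type rescue over knockout the authors' deposited table called 14 of 35 histone genes lower and 3 higher, where 51.9% of all genes were called, 23% lower and 28.8% higher. For NTF2-deletion rescue 9 of 36 were lower and 2 higher by the authors' deposited table, where 51.3% of all genes were called, 22.8% lower and 28.5% higher. The share called lower with NTF2-deletion rescue was thus near that of all genes. For that rescue limma-voom called 18 of 34 lower and 2 higher, where it called 66.6% of all genes, and centring on the median of well-measured genes raised the calls from 11 to 17. With test statistics divided by their robust spread, no histone call was left for either rescue. Well-measured genes, with base means of 100 or more, were shifted to medians of 0.18 and 0.17 here, and histone genes had medians of -0.34 and -0.37.

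H2BC21 had 1280.3 and 1321 normalised reads in knockout, 640.2 and 649 with wild-type and 688 and 737 with NTF2-deletion rescue. It was called lower with both forms, at -0.98 (SE 0.11, adjusted p 7.23e-19) and -0.84 (SE 0.11, adjusted p 8.16e-14) per the authors' deposited tables. H3C6 had 207 and 213 normalised reads in knockout, 66.0 and 86.9 with wild-type and 58.8 and 74.9 with NTF2-deletion rescue, and was called lower at -1.36 and -1.54 per the authors' deposited tables. H4C8 had 622 and 627 in knockout, 391 and 403 with wild-type and 399 and 423 with NTF2-deletion rescue. In these 3 genes every rescued library lay below both knockout libraries. With wild-type rescue 24 of 35 histone genes lay wholly below the knockout and 3 wholly above, against 40.5% and 42.3% of all genes. With NTF2-deletion rescue 22 of 36 lay wholly below and 3 wholly above, against 40.2% and 41.6% of all genes. H3C10, H2BC5 and H1-2 were also lower with both forms, at -0.94, -0.68 and -0.44 with wild-type and -0.80, -0.56 and -0.33 with NTF2-deletion G3BP1 per the authors' deposited tables. H2AC13, H4C4 and H2BC11 passed with wild-type G3BP1, at -1.22, -1.22 and -0.30, and stood at -0.81, -0.74 and -0.20 with the deletion form per the authors' deposited tables. H2BC12, H2AC6 and H2BC4 were called with neither form, at -0.09, -0.15 and 0.20 with wild-type G3BP1 per the authors' deposited table.

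Among variants MACROH2A2 changed most, from 454 and 485 normalised reads in knockout to 113 and 124 with wild-type and 112 and 129.6 with NTF2-deletion rescue. It was called lower at -1.91 and -1.88 per the authors' deposited tables. H3-3B had 4080.5 and 4460 normalised reads in knockout, 5661 and 5757 with wild-type and 5907 and 6124 with NTF2-deletion rescue and rose by 0.44 and 0.52 per the authors' deposited tables. MACROH2A1 rose by 0.30 and 0.31 per the authors' deposited tables, but relative to the median shift it stood at 0.12 and 0.14 and lost its call. With NTF2-deletion rescue H3C2, at -1.27, and H1-10, at -0.24, were called lower in the authors' deposited table. Other variants were at -0.57 for H3-3A, -0.21 for H2AX (both called), -0.31 for H1-10 and 0.00 for H2AZ1 with wild-type rescue per the authors' deposited table. H1-4 had 53.3 and 67.8 normalised reads in knockout, 128 and 139 with wild-type and 76.0 and 96.3 with NTF2-deletion rescue, and rose by 1.08 with the former, while the latter, at 0.48, was not called in the authors' deposited tables.

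**Figure D4:**
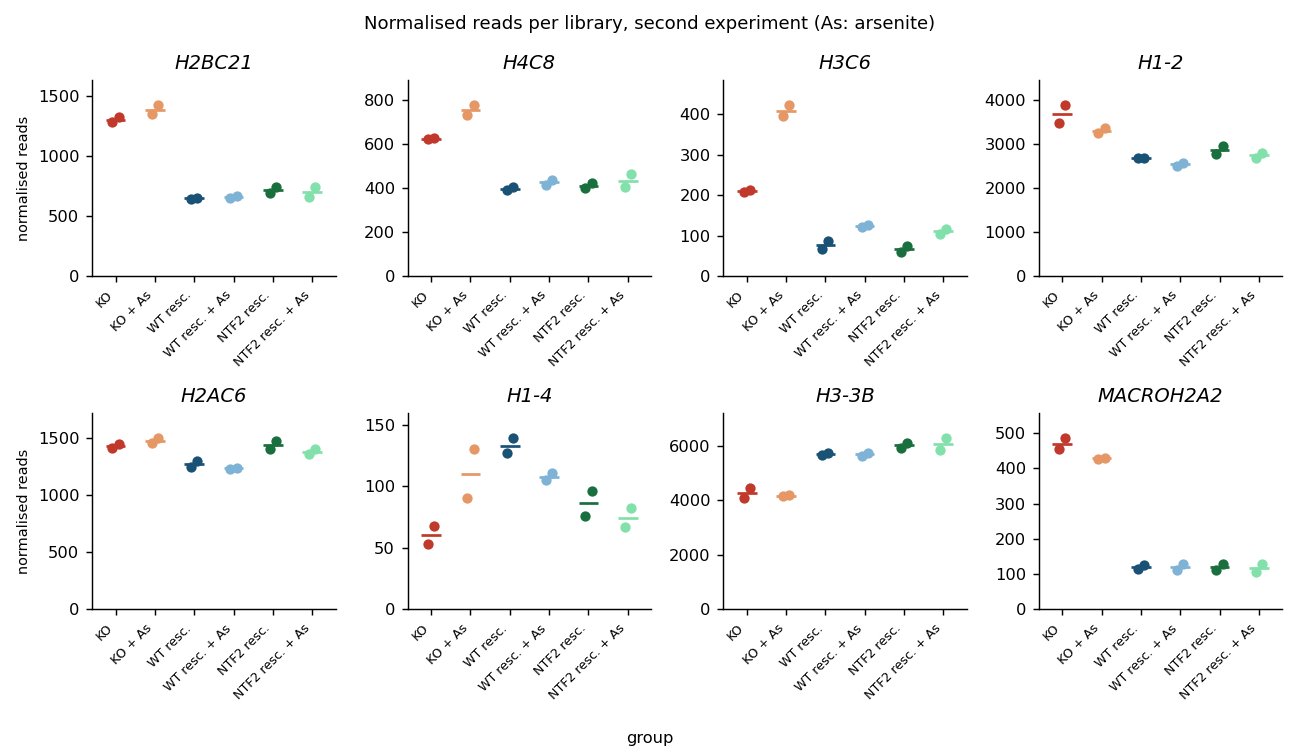
Normalised reads of 8 histone genes in each library of the second experiment (points) with the group mean (line), for knockout cells (KO) and for knockout cells rescued with wild-type or NTF2-deletion G3BP1, each without and with arsenite (As). H2BC21, H4C8, H3C6 and MACROH2A2 lie lower and H3-3B higher in rescued than in knockout libraries of the same treatment.

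Genes that act on histone messages moved mostly upward in this experiment. Of 17, the authors' deposited tables called 13 higher and 2 lower with wild-type and 12 higher and 1 lower with NTF2-deletion rescue. For this and the lists below, 28.8% and 28.5% of all genes were higher with the 2 forms, and 23% and 22.8% lower. LSM10, part of the U7 particle that cuts histone messages, rose by 1.24 and 1.32, and CSTF2, of the polyadenylation machinery, by 1.19 and 1.27 per the authors' deposited tables. SLBP had 442 and 497 normalised reads in knockout, 808 and 851 with wild-type and 755 and 812 with NTF2-deletion rescue, all rescued libraries above the knockout. That order held in 42.3% of all genes with wild-type and 41.6% with NTF2-deletion rescue. Of the chaperone genes 10 were higher and 6 lower with wild-type rescue and 10 higher and 4 lower with the deletion form by the authors' deposited tables, NASP standing at -0.20 and -0.12. NPAT, at 0.11 and 0.14 per the authors' deposited tables, was not called. S phase markers made up 2771 and 2837 of every M gene reads in knockout, 2946 and 2961 with wild-type and 3236 and 3254 with NTF2-deletion rescue, so they were higher where cluster reads were lower. Of 4 tested U2OS markers 3 were lower and 1 higher with each form, COL1A1 at -1.56 and -1.46 and VIM at 0.36 and 0.43 in the authors' deposited tables, and the part of either list in the histone values was not tested. Of the 15 S phase markers 9 and 11 were higher and 0 lower with the 2 forms per the authors' deposited tables.

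The 2 forms of G3BP1 were compared through tables that share the knockout libraries. Of 34 histone genes 0 differed by the test on the deposited fold changes, where 0.0185% of all genes were called, and 2 had an unadjusted p under 0.05. A contrast of recovered reads with limma-voom called 1, H2AX, lower with wild-type than with NTF2-deletion G3BP1 by 0.24 (adjusted p 0.0361). It called 1.11% of all genes there. H2AX had 2449 and 2476 normalised reads with the wild-type and 2891 and 2933 with the deletion form, and 2709 and 3063 in knockout libraries. With arsenite in both, limma-voom called H2AX, H2AZ1 and H2BC12 lower with wild-type G3BP1, by 0.23, 0.18 and 0.26 (adjusted p 0.017, 0.0196 and 0.00177). These were 3 of 34 histone genes, where 3.11% of all genes were called. Leaving out any 1 of the 4 untreated rescued libraries left 0 of these calls without arsenite, and leaving out any 1 of the 4 treated ones left 0 to 2 calls.

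The log2 change with rescue was compared between experiments on the deposited fold changes, which were shrunken separately in each table. It differed in 7 of 35 histone genes, with a higher signed value in the second experiment in 5 and a lower one in 2, where 37.3% of all genes were called, 20.3% higher and 17% lower. MACROH2A2 stood at -1.91 in the second and -0.06 in the first experiment, a difference of -1.85 (SE 0.21, adjusted p 1.63e-16), and H3-3A at -0.57 and -0.03 (adjusted p 0.029). These 2 genes were thus further below the knockout with rescue in the second experiment. H4C2, H4C3, H2BC12 and H2BC11 were further below it in the first, at -1.91, -1.65, -0.50 and -0.64, against -0.22, -0.34, -0.09 and -0.30 in the second. H1-4 stood at -0.29 in the first and 1.08 in the second experiment. Depth also differed between the experiments and cannot be told apart from other differences between them.

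The next comparisons asked what arsenite, which causes oxidative stress and stress granules, did within 2 h. By the authors' tables the share of histone genes called was below that of all genes in knockout cells and in NTF2-deletion rescue, and not in wild-type rescue. In knockout cells the authors' deposited table called 1 of 32 higher and 2 lower, where 19.4% of all genes were called, 8.56% higher and 10.9% lower. With wild-type rescue 1 of 24 was higher and 5 lower by the authors' deposited table, where 20.4% were called, 8.18% higher and 12.2% lower. With NTF2-deletion rescue the authors' deposited DESeq2 table called 0 of 23, where 8.57% were called, 2.43% higher and 6.14% lower. There limma-voom called 3 of 34, with 6 at an unadjusted p under 0.05, where it called 12.9% of all genes. In knockout cells limma-voom called more than the deposited table, 3 of 34 higher and 6 lower, where it called 34.9% of all genes. With test statistics divided by their robust spread, fewer histone calls were left in knockout cells and none in wild-type rescue. Treated libraries held 1132 and 1209.9 cluster reads per M gene reads in knockout, overlapping the untreated ones, and 763 and 769 with wild-type and 846 and 868 with NTF2-deletion rescue, just below them.

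H3C6, a gene of the chromosome 6 cluster, was the 1 histone gene called higher in the authors' deposited tables, in knockout cells and in wild-type rescue. Its normalised reads were 207 and 213 without and 396 and 422 with arsenite in knockout cells, 66.0 and 86.9 without and 121 and 126 with it in wild-type rescue, and 58.8 and 74.9 without and 105 and 117 with it in NTF2-deletion rescue. Treated libraries lay above untreated ones in all 3 backgrounds. The authors' deposited tables gave 0.90 (SE 0.17, adjusted p 2.32e-06), 0.48 (SE 0.17, adjusted p 0.0208) and, not called, 0.32 (SE 0.14, adjusted p 0.165). These values were shrunken separately in each table, so their sizes cannot be compared directly between backgrounds. In knockout cells limma-voom also called H1-4 higher, at 0.86 (adjusted p 0.00224), and H4C8, at 0.27 (adjusted p 0.00574), which the deposited table did not call. Genes called lower included H3-3A in knockout cells, at -0.46, and H3C1, H2BC11, H2AZ1 and MACROH2A1 with wild-type rescue, at -0.47, -0.21, -0.13 and -0.12, in the authors' deposited tables.

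Whether the arsenite response differed between backgrounds was tested on the deposited fold changes, where the comparisons with knockout share its libraries. These fold changes were shrunken separately in each table, which also affects their differences. For wild-type rescue minus knockout 0 of 33 histone genes were called, 1 having an unadjusted p under 0.05, where 4.51% of all genes were called, 1.82% larger and 2.68% smaller. For NTF2-deletion rescue minus knockout 0 of 31 were called, 3 having an unadjusted p under 0.05, where 7.12% of all genes were called, 4.04% larger and 3.08% smaller. For wild-type minus NTF2-deletion rescue 0 of 31 were called, 1 having an unadjusted p under 0.05, where 0.328% of all genes were called, 0.101% larger and 0.227% smaller. With limma-voom on recovered reads H1-4 was called in the comparisons with knockout, at -1.16 (adjusted p 0.00328) and -1.06 (adjusted p 0.0153), and H3-3A in that of the deletion form, at 0.52 (adjusted p 0.0359). For the deletion form limma-voom called 0 histone genes once library a of the treated knockout cells was left out. H1-4 had 53.3 and 67.8 normalised reads without and 90.2 and 130.5 with arsenite in knockout cells, and 128 and 139 without and 105 and 111 with arsenite in wild-type rescue, so the order of treated and untreated libraries was opposite. Treated libraries lay wholly above in 30.0% of all genes in knockout cells and wholly below in 27.3% in wild-type rescue. Among genes that act on histone messages ZNF473, a zinc finger protein of the U7 particle, rose in all 3 backgrounds, by 1.11, 0.38 and 0.44 per the authors' deposited tables. Of 15 S phase markers 6, 4 and 1 were lower with arsenite, RRM2 each time, per the authors' deposited tables.

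Treated rescued cells were also set against untreated knockout cells, where rescue and arsenite cannot be told apart. With wild-type rescue 18 of 35 histone genes were lower and 3 higher by the authors' deposited table, where 56.4% of all genes were called, 24.4% lower and 32% higher. With NTF2-deletion rescue 14 of 36 were lower and 2 higher by the authors' deposited table, where 54.3% were called, 24.3% lower and 30% higher. With test statistics divided by their robust spread, no histone call was left in either comparison. MACROH2A2 was lowest in both, at -1.89 and -1.92, and H4C12 and H4C4 were also low, at -1.63 and -1.57 with wild-type and -1.61 and -1.45 with NTF2-deletion rescue, in the authors' deposited tables. H2AC13 and H3C2 stood at -1.66 and -1.41 with wild-type rescue, and H2BC7 and H3C10 at -1.56 and -1.21 with the deletion form, among the lowest called in the authors' deposited tables. H3-3B was called higher in both, at 0.48 and 0.54, per the authors' deposited tables. MACROH2A1, at 0.24 and 0.30, and H1-4 with wild-type rescue, at 0.85, were called higher in the authors' deposited tables and lost the call relative to the median of well-measured genes, 0.22 and 0.19. Against knockout cells with arsenite too, limma-voom called 24 of 34 histone genes lower and 2 higher with wild-type rescue, where it called 71.6% of all genes. With NTF2-deletion rescue it called 20 lower and 3 higher, where it called 69.2% of all genes.

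The last comparison asked which histone messages are found with G3BP1. Messages of replacement and variant histones were mostly more abundant in the IP than in the input, and cluster genes went both ways. The authors' deposited RIP table called 10 of 26 histone genes higher and 3 lower in the IP, where 75.1% of all genes were called, 37.1% higher and 37.9% lower, so the share called higher was near that of all genes. Of the 8 variant genes 7 were higher: H2AZ1 at 1.54 (SE 0.11, adjusted p 6.2e-41), MACROH2A2 at 1.31, H3-3B at 1.30, H2AX at 1.18, H1-10 at 0.92, MACROH2A1 at 0.47 and H3-3A at 0.44 in the authors' deposited table. Well-measured genes had a median of 0.12, and relative to it H3-3A, at 0.32, lost its call.

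Of 18 cluster genes 3 were higher, 3 lower and 12 not called. H1-2, H2AC6 and H2BC11 were higher, at 1.09 (SE 0.16), 0.81 and 0.68 in the authors' deposited table. The other polyadenylated cluster genes H2BC12, H2BC5, H2BC4 and H2BC21, at 0.02, -0.06, 0.07 and -0.58 in the authors' deposited table, were not called. H1-4 had 17.5, 33 and 33.2 normalised reads in the IP and 54.4, 61.1 and 79.7 in the input. H2BC18 had 2.55, 9.23 and 13.2 in the IP and 21.5, 25.9 and 31.5 in the input, and H4C2 had 0.824, 5.1 and 6.46 in the IP and 11.1, 19.3 and 19.5 in the input. In these 3 genes every IP library lay below every input library, and they were called lower at -1.20, -1.49 and -1.80 in the authors' deposited table. The share of all genes with either order is not known, since RIP reads were recovered for few genes. H3C6 had 23.9, 40.8 and 41.5 in the IP and 32.4, 34.2 and 39.7 in the input, which overlap.

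**Figure D5:**
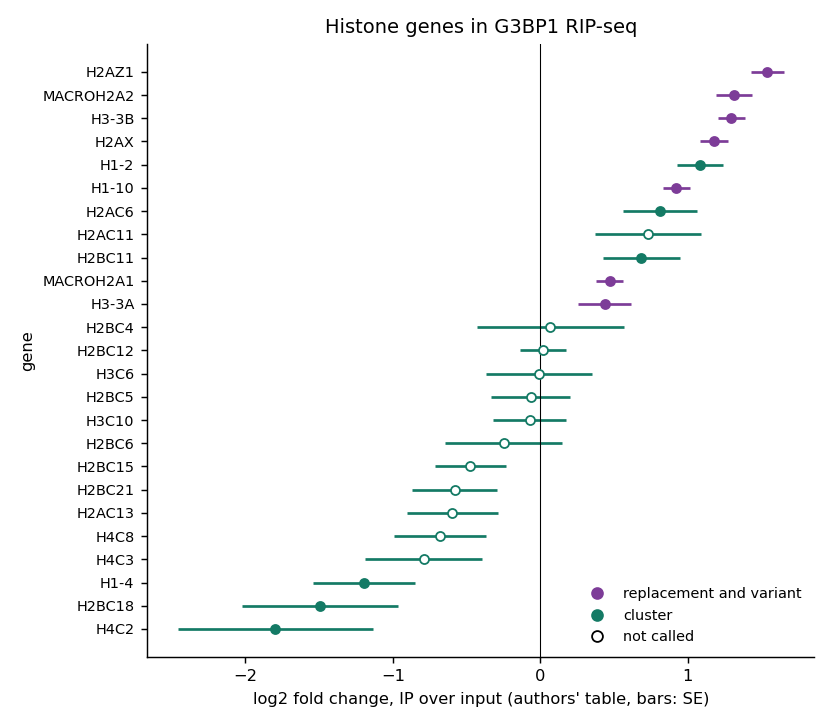
Log2 fold change of IP over input in RIP-seq for 25 histone genes, with the authors' standard errors as bars; filled points passed an adjusted p of 0.05. Replacement and variant genes (purple) lie between 0.44 and 1.54, and cluster genes (green) between -1.80 and 1.09.

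Among other genes of the histone system, SLBP, NASP and PCNA were higher in the IP, at 1.09, 0.99 and 1.76, and NPAT lower, at -1.91, in the authors' deposited table. Of 17 genes that act on histone messages 5 were higher and 9 lower, with LSM10 at 1.77, LSM1 at 1.46, UPF1 at -2.57 and SYMPK at -1.97, and of 20 chaperone genes 10 were higher and 8 lower, with HIRIP3 at 1.34, CABIN1 at -2.80 and ATRX at -2.79, in the authors' deposited table. With test statistics divided by their robust spread 0 of the 13 histone calls were left. That spread was taken over all genes tested, of which 75.1% were called, and the share of all genes keeping a call is not given. The pseudogenes H2BC19P and H2BC20P, which were no members, were lower in the IP, at -1.72 and -2.55 in the authors' deposited table.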

How the data were processed

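RNA was poly-A selected and made into stranded libraries, per the labels' protocols. STAR 2.7.0f (first experiment and RIP-seq) and DESeq2 2.11.40.6 are named in the submitters' processing notes. The build, annotation and gene counter are not given in the sources used here. The deposited values came from 11 tables of the authors' comparisons: base mean (a signal in normalised reads), shrunken log2 fold change with its standard error, Wald statistic (a score), p-value and adjusted p-value. The 4 lines of read-counting totals were removed. Calls are adjusted p-values under 0.05 of the authors' DESeq2 test, and histone genes had to reach a base mean of 10.

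Whole reads per library were recovered from the digits of the base means. For 61539 of 61541 genes, whole numbers in all 18 RNA-seq libraries gave the deposited base means within a relative tolerance of 8e-15. In RIP-seq this was possible for 9 histone genes with low base means. These reads, divided by median-of-ratios size factors within an experiment, are the normalised reads. The 2 libraries of every group differed by more than read sampling gives, and each was counted as a replicate.

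A difference between 2 tables was scaled by its combined standard error, read two-sided from a normal distribution and adjusted by Benjamini-Hochberg over genes that reached a base mean of 10 in both. limma 3.58.1 (voom) was fitted to the recovered reads of each experiment as an alternative added after the data were seen. Scripts were tested on simulated data. Single-gene values of 1 histone gene are not reported here and not drawn, although counts and sums over lists hold it. Another 48 libraries of the series were not analysed here. The histone genes, gene lists and tests were chosen with earlier results of these data known. Pseudogenes whose symbol ends in P with or without digits were dropped. Named genes were the listed variant and polyadenylated genes, up to 5 of the highest and lowest called per comparison, genes called in a difference test, SLBP, NPAT, NASP and PCNA, and the 2 extremes of each other list; others were chosen after their values were seen.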

Additional observations from a re-analysis of the deposited data

Results flagged for a closer look

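The log2 change with G3BP1 rescue, relative to knockout, differed between the experiments in 7 histone genes by a test of the difference, given here as the second minus the first experiment. The difference was -1.85 for MACROH2A2 (-1.91 in the second and -0.06 in the first experiment) and -0.55 for H3-3A (-0.57 and -0.03), so both were further below the knockout in the second. It was 1.69 for H4C2 (-0.22 and -1.91), 1.31 for H4C3 (-0.34 and -1.65), 0.41 for H2BC12 (-0.09 and -0.50) and 0.34 for H2BC11 (-0.30 and -0.64), which were further below the knockout in the first. For H1-4 it was 1.37 (1.08 and -0.29). In H4C3 the knockout libraries of the second experiment held 65.3 and 138 normalised reads, on both sides of the 73.9 and 80.6 of the rescue. The test's threshold was passed in 37.3% of all genes, so a difference between the experiments was not particular to these 7.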

How the results depend on the processing

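The base mean minimum and the named pseudogenes changed no count of calls by over 1.5 times. Dividing the statistics by their robust spread lowered the calls in every table with calls: RIP 13 to 0, knockout against wild type 31 to 16, knockout against rescue 21 to 8, wild type against rescue 22 to 14, arsenite in knockout 3 to 1, arsenite in wild-type rescue 6 to 0, the rescues against knockout 17 and 11 to 0, and the treated rescues against knockout 21 and 16 to 0. It left 1 of 7 calls between the experiments (MACROH2A2) and gave 1 in the difference of the rescues. The share of all genes keeping a call with this setting is not given, so these losses are not measured against other genes. An adjusted p under 0.01 left 1 of 3 (arsenite in knockout), 2 of 6 (arsenite in wild-type rescue) and 4 of 7 (between the experiments). Centring raised NTF2-deletion rescue from 11 to 17 and left 154 of 161 called histone values past the threshold. limma-voom gave 9 calls for arsenite in knockout, 3 for arsenite in NTF2-deletion rescue, 20 for NTF2-deletion rescue, 1 and 2 for the arsenite differences of wild-type and NTF2-deletion rescue from knockout, and 1 for the difference of the rescues. It kept 144 of 146 called values past the threshold and reversed none.

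Leaving out each library in turn with limma-voom, the lone library assumed to vary like the other groups, gave 5 to 10 calls for arsenite in knockout, 1 to 3 in wild-type rescue, 0 to 1 in NTF2-deletion rescue, 17 to 21 for NTF2-deletion rescue against knockout (18 without knockout library b and 18 without rescue library a), 1 to 3 for the wild-type arsenite difference and 0 to 3 for the NTF2-deletion one, and 31 to 33 for knockout against wild type. The median log2 ratio for arsenite in knockout ran from -0.062 to 0.094 and turned positive without library b of the treated (0.079) or of the untreated (0.094) knockout cells. No paired analysis was possible because the tables and the recovered libraries carry no replicate numbers. Leave-one-out ratios were not run for RIP, where reads of few genes were recovered. Genes near a base mean of 10 had wide standard errors, so small changes in them were not detectable at this depth.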
